A study of Mus musculus with 8 samples.

Results

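The Wnt pathway was followed in 4 populations of mouse adult fibroblasts (MAFs) through 44 genes chosen by name, which encode Wnt ligands and their processing, receptors, intracellular components, TCF transcription factors, and output and feedback genes of the pathway. Each gene was represented by the probe set with the highest mean signal among the probe sets annotated to that gene alone. By this rule 43 of the 44 genes were measured, among 18193 genes with such a probe set on an Affymetrix whole-genome mouse array. Tcf7 had no probe set of its own and is given no value. No measured difference entered the choice of the probe sets. The question put to the arrays was whether Wnt output genes were higher where the Wnt antagonists Sfrp1 and Sfrp2 were lost.

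All cells were fibroblasts of the peritoneal fascia from mice with Rb loxP/loxP alleles, and a retrovirus had brought p53DD, which blocks p53 in a dominant negative way, into all of them. GFP cells had received an adenovirus with GFP and kept RB, and Cre cells had received an adenovirus with GFP and Cre recombinase, which deletes a floxed exon of Rb. The Naïve cells were untreated. The Recurred cells had been exposed to cisplatin (CDDP) for 24 h and had then grown out again in fresh media. The age of the animals is not given in the sources used here. The virus reached most but not all cells, the cells were bulk cultures, and 2 arrays labelled as biological replicates were made per population, 8 in all. The values are log2 signals deposited by the authors after the Robust Multichip Average (RMA) procedure, which removes background, equalises the distributions of the arrays and summarises the probes of a probe set. Signals of different probe sets depend on their probes, so levels are compared here between arrays, and the levels of different genes are not ranked.

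Array medians ran from 5.37 to 5.41, and the median over all probe sets was 5.4, a level above which 30 of the 43 genes lay and at or below which 13 lay. The Rb1 signal, the check of the labels, was 7.98 and 8.07 in GFP Naïve, 6.21 and 5.72 in Cre Naïve, 8.21 and 8.78 in GFP Recurred and 4.98 and 5.45 in Cre Recurred cells, so the 4 Cre arrays lay below the 4 GFP arrays. Where the probes of Rb1 lie relative to the deleted exon was not examined. The Naïve arrays did not correlate best with their partners. Over all probe sets Cre Naïve replicate 2 correlated at 0.9855 with Cre Naïve replicate 1 and at 0.9917 with Cre Recurred replicate 2. GFP Naïve replicate 1 correlated at 0.9865 with GFP Naïve replicate 2 and at 0.9941 with Cre Naïve replicate 1. What leaving out Cre Naïve replicate 2 changed is said below for the 43 genes. For the antagonists, markers and other genes listed apart it is said only in part.

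Wnt ligands are secreted lipid-modified proteins that bind Frizzled receptors. With the co-receptors Lrp5 and Lrp6 they stabilise β-catenin, which enters the nucleus, binds TCF and LEF factors and switches on target genes, among them negative feedback genes such as Axin2. A second branch, the non-canonical or planar polarity branch, is typically driven by Wnt5a through the receptor tyrosine kinases Ror1 and Ror2, and acts on the cytoskeleton and on cell movement without β-catenin. Secreted frizzled-related proteins (Sfrp) bind Wnt ligands outside the cell. In fibroblasts the pathway is known for its part in matrix production and in the exchange of signals with neighbouring cells.

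In the Cre Recurred cells none of the output genes rose at the thresholds used, and 4 other members fell against the mean of the 3 other populations: the ligands Wnt4 and Wnt5a and the receptors Ror1 and Ror2. Their signals lay 4.12- to 11.8-fold below that mean. The main limma fit, with 1 mean per population and all 8 arrays, called no member of the 43 higher in any of the 6 comparisons. Single arrays left out gave higher calls of Wnt7a, Wnt10b, Znrf3, Wnt10a, Fzd3 and Fzd8 that are described below. Fzd8 was also called higher against GFP Recurred cells in alternative fits of all 8 arrays. A difference was called at the study's thresholds when it was at least 1.5-fold with an adjusted p under 0.25, taken from limma with Benjamini-Hochberg adjustment over 45037 probe sets. The words rose and fell are kept for differences of that size whose adjusted p was under 0.05. In bulk RNA of this kind, fewer cells of a type and less RNA per cell cannot be told apart.

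The loss of the antagonists set the frame. The Sfrp1 signal was 12.28 and 12.03 in GFP Naïve, 12.81 and 11.23 in Cre Naïve, 13.02 and 13.20 in GFP Recurred and 5.65 and 6.88 in Cre Recurred cells. The Sfrp2 signal was 10.82 and 10.15 in GFP Naïve, 10.76 and 7.05 in Cre Naïve, 10.27 and 10.04 in GFP Recurred and 3.66 and 3.62 in Cre Recurred cells. Neither gene overlapped between the Cre Recurred arrays and the 6 others, although Sfrp2 was already low in Cre Naïve replicate 2. Against the mean of the 3 other populations Sfrp1 fell by 6.16 (log2, SE 0.45, adjusted p = 0.00711) and Sfrp2 fell by 6.21 (log2, SE 0.83, adjusted p = 0.0327; limma), a call that Sfrp2 lost without Cre Recurred replicate 1 (adjusted p = 0.299). The values of these genes were known when the question was asked, so they are the starting point and not a result.

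Wnt4 encodes a ligand of kidney and gonad development that can act through either branch. Its signal was 7.85 and 6.80 in GFP Naïve, 8.27 and 8.43 in Cre Naïve, 7.81 and 7.91 in GFP Recurred and 5.51 and 5.66 in Cre Recurred cells. Both Cre Recurred arrays lay below the 6 others. Against Cre Naïve cells the log2 fold change was -2.77 (SE 0.31, 95% interval -3.49 to -2.04, adjusted p = 0.0554, limma), which met the study's thresholds and missed the stricter one. Against the mean of the 3 other populations Wnt4 fell by 2.26 (log2, SE 0.25, adjusted p = 0.0208, limma). A dimmer second probe set of Wnt4 differed by -0.53 (log2, adjusted p = 0.308, limma) in that comparison, a smaller difference that was not called. The call of Wnt4 against Cre Naïve cells was lost without Cre Recurred replicate 1 (adjusted p = 0.505), while that against the 3 other populations met the study's thresholds with any array left out (-2.44 to -2.09, adjusted p from 0.00636 to 0.24).

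Wnt5a encodes the prototype non-canonical ligand. Its signal was 6.93 and 8.52 in GFP Naïve, 8.21 and 6.23 in Cre Naïve, 8.90 and 9.26 in GFP Recurred and 4.49 and 4.41 in Cre Recurred cells. The Naïve arrays spread widely, the GFP Recurred arrays were highest, and both Cre Recurred arrays were lowest. Against Cre Naïve cells the log2 fold change of Wnt5a was -2.77 (SE 0.69, adjusted p = 0.285, limma) and was not called, and without Cre Naïve replicate 2 it was -3.76 (adjusted p = 0.0698). Against GFP Recurred cells Wnt5a fell by 4.63 (log2, SE 0.69, 24.8-fold, adjusted p = 0.0473, limma), and against the mean of the 3 other populations it fell by 3.56 (log2, SE 0.56, adjusted p = 0.0491, limma). Of its 3 other probe sets, 2 differed by -3.05 and -2.95 in the latter comparison, and the dimmest by -0.10 (log2). The call of Wnt5a against the 3 other populations was lost without Cre Recurred replicate 1 (-3.60, adjusted p = 0.349), and that against GFP Recurred cells was lost without either that array (adjusted p = 0.26) or GFP Recurred replicate 2 (adjusted p = 0.35).

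Ror1, a Wnt5a receptor, had signals of 6.17 and 6.15 in GFP Naïve, 6.84 and 5.94 in Cre Naïve, 6.24 and 6.23 in GFP Recurred and 4.04 and 4.40 in Cre Recurred cells. The 6 other arrays were close together, and both Cre Recurred arrays were below them. The log2 fold change of Ror1 was -2.17 (SE 0.28, adjusted p = 0.0860, limma) against Cre Naïve cells and -2.04 (SE 0.23, adjusted p = 0.0221, limma) against the mean of the 3 other populations. The 2 dimmer probe sets of Ror1 went the other way, at 0.21 and 0.29 (log2) in the latter comparison, neither of them called, so the fall of Ror1 rests on 1 of 3 probe sets. With the mean of all its probe sets Ror1 differed by -0.51 and stayed under 1.5-fold. Its call against Cre Naïve cells was lost without Cre Recurred replicate 1 (adjusted p = 0.571) or either GFP Recurred array (adjusted p = 0.271), and that against the 3 other populations without Cre Recurred replicate 1 (-1.86, adjusted p = 0.251).

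Ror2, its paralogue, had signals of 7.61 and 7.88 in GFP Naïve, 8.42 and 8.27 in Cre Naïve, 8.54 and 8.60 in GFP Recurred and 5.35 and 6.48 in Cre Recurred cells. Cre Recurred replicate 1 was the lower of the pair, and both lay below all other arrays. The log2 fold change of Ror2 was -2.43 (SE 0.33, adjusted p = 0.0963, limma) against Cre Naïve cells and -2.30 (SE 0.27, adjusted p = 0.0233, limma) against the mean of the 3 other populations. Its second probe set gave -1.94 (log2, adjusted p = 0.0666, limma) in the latter comparison, the same direction. The call of Ror2 against Cre Naïve cells was lost without Cre Naïve replicate 1 (adjusted p = 0.268) or either GFP Recurred array (adjusted p = 0.282), while that against the 3 other populations was kept with any array left out (-2.87 to -1.74, adjusted p from 0.0161 to 0.101).

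**Figure D1:**
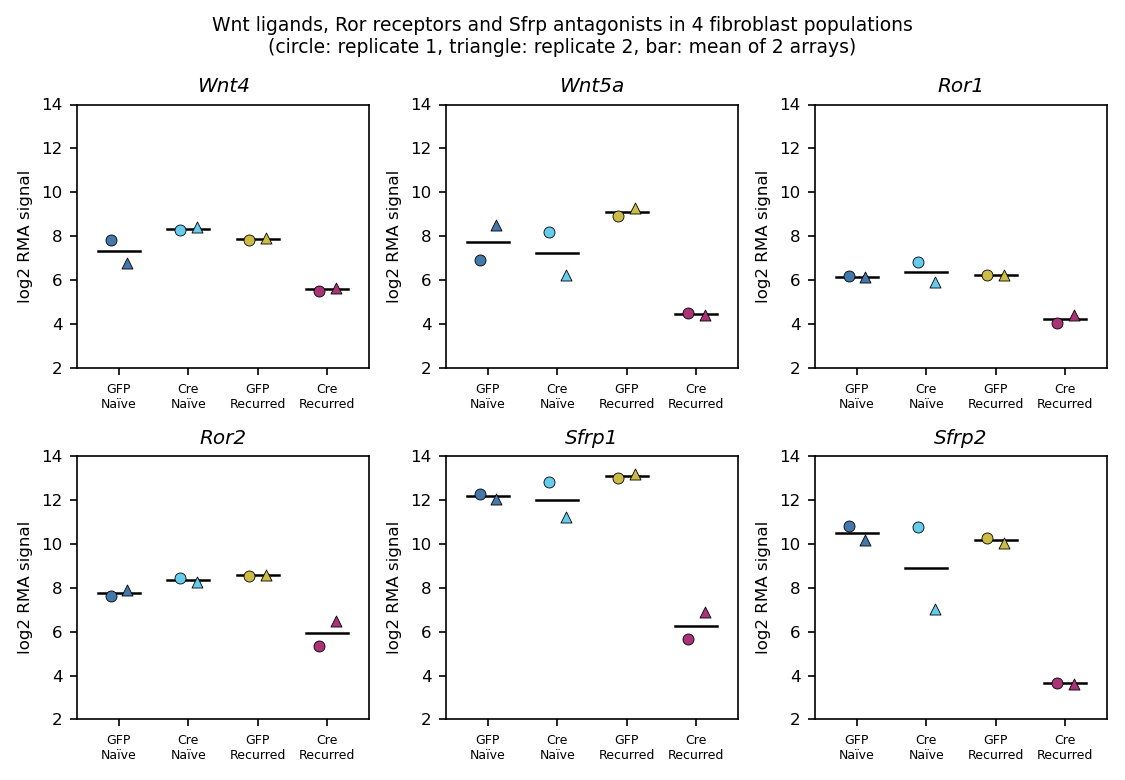
Log2 RMA signal of 6 genes (vertical axis) in the 4 populations (horizontal axis), with a circle for replicate 1, a triangle for replicate 2 and a bar for the mean of 2 arrays. The Cre Recurred arrays were the lowest for Wnt4 (5.51 and 5.66), Wnt5a (4.49 and 4.41), Ror1, Ror2, Sfrp1 and Sfrp2, and Sfrp2 was at 7.05 in Cre Naïve replicate 2.

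The promoters of the genes that were low together are shown because the study treated these cells with 5-aza-dC, an inhibitor of DNA methylation, and methylation falls on CG dinucleotides. The arrays measured no methylation. Each sequence is a RefSeq window (GRCm38.p6) from 250 bases before to 50 bases after a gene start, written 5′ to 3′ on the strand of the gene, with every CG in capitals. No such window was held for Wnt5a, and Axin2 is given as an output gene that was not called. The window of Wnt4 is chr4:137277385-137277684 on the plus strand, that of Ror1 chr4:100095541-100095840 on the plus strand, that of Ror2 chr13:53286075-53286374 on the minus strand and that of Axin2 chr11:108920099-108920398 on the plus strand.
Wnt4: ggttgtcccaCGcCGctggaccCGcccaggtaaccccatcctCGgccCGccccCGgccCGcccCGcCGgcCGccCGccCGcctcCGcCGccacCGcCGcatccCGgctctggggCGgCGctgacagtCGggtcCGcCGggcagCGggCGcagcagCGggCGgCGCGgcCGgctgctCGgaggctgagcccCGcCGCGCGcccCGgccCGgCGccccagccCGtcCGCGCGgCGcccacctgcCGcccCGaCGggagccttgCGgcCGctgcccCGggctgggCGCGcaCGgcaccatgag
Ror1: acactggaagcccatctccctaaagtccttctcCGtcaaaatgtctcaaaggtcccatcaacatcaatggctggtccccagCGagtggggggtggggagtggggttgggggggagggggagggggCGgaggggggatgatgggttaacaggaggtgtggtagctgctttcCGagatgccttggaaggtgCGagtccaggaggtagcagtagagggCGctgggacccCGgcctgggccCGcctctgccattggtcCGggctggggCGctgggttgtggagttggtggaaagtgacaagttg
Ror2: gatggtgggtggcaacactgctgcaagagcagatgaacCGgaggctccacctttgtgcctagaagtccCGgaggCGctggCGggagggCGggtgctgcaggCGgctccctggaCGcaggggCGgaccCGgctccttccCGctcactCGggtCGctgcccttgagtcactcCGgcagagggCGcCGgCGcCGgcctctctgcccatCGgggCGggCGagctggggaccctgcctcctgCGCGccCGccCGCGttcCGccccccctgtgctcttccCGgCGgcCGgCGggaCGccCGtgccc
Axin2: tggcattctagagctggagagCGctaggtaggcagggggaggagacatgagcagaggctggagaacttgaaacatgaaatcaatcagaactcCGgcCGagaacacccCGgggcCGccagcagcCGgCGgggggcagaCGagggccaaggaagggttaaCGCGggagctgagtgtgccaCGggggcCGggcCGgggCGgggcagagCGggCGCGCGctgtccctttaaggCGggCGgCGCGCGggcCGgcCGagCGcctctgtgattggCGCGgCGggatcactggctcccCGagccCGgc
The 300 bases of Wnt4 held 51 CG dinucleotides, a number that 0.715% of the 32851 windows in the table reached. Ror2 held 32, reached by 9.52% of windows, and Ror1 held 10, reached by 43.5%, while the median window held 7. Axin2, which was not called, held 31. The 3 genes that were low together thus ranged from a dense to an ordinary CG content. CTTTGA, the core letters bound by TCF and LEF factors, was searched on both strands and lay in 16% of all windows. It was found in 6 of the 40 windows of the genes followed here, 1 of them that of Ror1, and in none of the windows of the 4 output genes that had one. The match is of letters only.

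Over the 43 genes together, 3 of 43 genes were called in Cre Recurred against Cre Naïve cells, all lower (Wnt4, Ror1 and Ror2), beside 1.65% of all genes called in either direction, 1.2% lower and 0.456% higher. At the stricter threshold the count was 0, beside 0.0934% of all genes called in either direction, and 11 of the 43 had an unadjusted p under 0.05, 4 of them higher and 7 lower. The share of all genes with an unadjusted p under 0.05 was not computed, so no such count, here or below, is read as an excess. The median log2 fold change was -0.11 over the set and 0.05 over all genes. The shares of all genes given here and below are those of limma in the fit of all 8 arrays. None was computed with an array left out. The counts of such fits thus cannot tell a change in the Wnt genes from a change over all genes. Without Cre Naïve replicate 2 the count was 8, of which 3 were higher (Wnt7a, Wnt10b and Znrf3) and 5 lower, and without Cre Recurred replicate 2 it was 6. Without either of the GFP Recurred arrays, or without Cre Recurred replicate 1, it was 1, as it was in a fit of the compared arrays only and with a SAM-type statistic, a permutation measure modelled on the one the study used.

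Against the mean of the 3 other populations, 6 genes were called, all lower (Wnt4, Wnt5a, Ror1, Ror2, Lrp6 and Tcf7l1), beside 8.35% of all genes called in either direction, 5.66% lower and 2.69% higher. Of these, 4 passed the stricter threshold, beside 1.26% of all genes in either direction. Both Cre Recurred arrays lay below the 6 others for 6 genes, the 4 above with Tcf7l1 and Nkd2, beside 9.32% of all genes, and above them for 5 genes, Wnt6, Wnt7a, Axin1, Lef1 and Znrf3, beside 12.9% of all genes. Without Cre Recurred replicate 1 the count of called genes was 2 (Wnt4 and Ror2), with an adjusted p of 0.349 for Wnt5a and 0.251 for Ror1. The same 6 genes were called lower against GFP Recurred cells alone, beside 11.4% of all genes called in either direction, 6.55% lower and 4.81% higher, and 4 of them passed the stricter threshold, beside 1.1% of all genes. Leaving out GFP Recurred replicate 2 took that count to 0, leaving out Cre Recurred replicate 1 took it to 1, and the fit that lacked Cre Recurred replicate 2 called 10. The comparisons share the Cre Recurred arrays, so the count in each is not a repeat of the other.

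In the comparison of Cre Naïve with GFP Naïve cells limma called 0 of 43 genes, beside 0% of all genes, and the SAM-type statistic also called 0. Rb1, which Cre deletes in part, was not called there either. Its log2 fold change was -2.06 (unadjusted p = 9.44e-05, adjusted p = 0.997, limma). A count of 0 in this comparison thus cannot show that the genes were unchanged. Of the 43 genes only Wnt4 had an unadjusted p under 0.05, 1.02 higher on the log2 scale (adjusted p = 0.997). Without Cre Naïve replicate 1 the count was 2, Wnt10a and Fzd3, both higher. In GFP Recurred against GFP Naïve cells limma called 0, beside 0.0165% of all genes in either direction, 0.011% higher and 0.0055% lower. Of the 43 genes, 6 had an unadjusted p under 0.05. The SAM-type statistic called 1, Ror2, which was 0.82 higher (log2). Over all probe sets that statistic called 266 there, while limma called 4 higher and 2 lower. The limma shares are thus no background for its calls. The change with recurrence differed between Cre and GFP cells at the study's thresholds for 3 genes, Wnt4, Ror1 and Ror2, all more negative in Cre cells, beside 0.539% of all genes called in either direction in this interaction, 0.357% lower and 0.181% higher. The interaction was -3.30 for Wnt4 (log2, SE 0.43, adjusted p = 0.172), -2.24 for Ror1 (SE 0.40, adjusted p = 0.236) and -3.25 for Ror2 (SE 0.47, adjusted p = 0.175; limma), and no gene of the array passed the stricter threshold there. For Wnt5a it was -4.13 (log2, SE 0.98, adjusted p = 0.317, limma) and was not called with all 8 arrays, but it was called without Cre Naïve replicate 2 (-5.12, adjusted p = 0.074), GFP Naïve replicate 2 (-4.93, adjusted p = 0.233) or Cre Recurred replicate 2 (-4.09, adjusted p = 0.236). Without either of the GFP Recurred arrays or Cre Recurred replicate 1 none of the 43 was called in the interaction, without GFP Naïve replicate 1 Wnt4 alone was, and the fit that lacked Cre Recurred replicate 2 called 7.

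**Figure D2:**
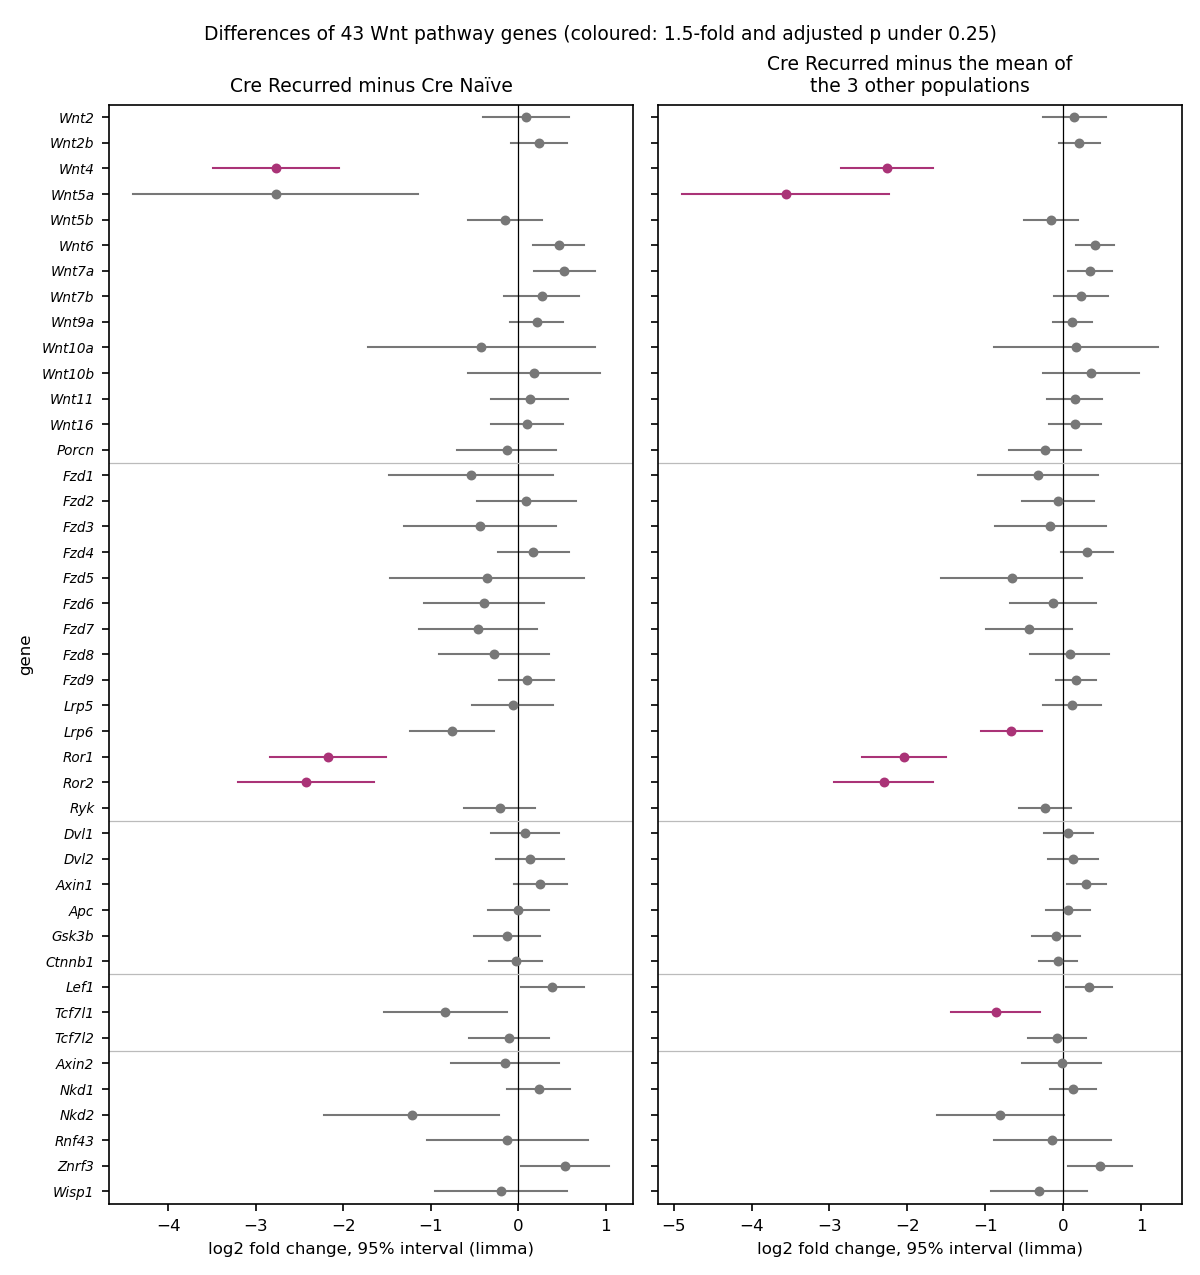
Log2 fold change (horizontal axis) of 43 Wnt pathway genes (vertical axis), with 95% intervals from limma, for Cre Recurred minus Cre Naïve cells at the left and Cre Recurred minus the mean of the 3 other populations at the right. Coloured genes met the study's thresholds (3 at the left, 6 at the right), and grey lines part ligands, receptors, intracellular components, TCF factors, and output and feedback genes.

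The output genes are those listed here as targets or feedback genes of β-catenin and TCF factors. Whether each of them responds to these factors in the fibroblasts used here was not examined. Axin2, a scaffold of the β-catenin destruction complex and the usual readout of the pathway, had signals of 5.60 and 4.90 in GFP Naïve, 5.16 and 5.67 in Cre Naïve, 5.13 and 5.21 in GFP Recurred and 5.38 and 5.15 in Cre Recurred cells. The Cre Recurred arrays lay within the range of the others. Against Cre Naïve cells the difference of Axin2 was -0.15 (log2, SE 0.26, 95% interval -0.77 to 0.47, adjusted p = 0.836, limma), so a rise of its signal by more than 1.38-fold lay outside the interval. The mean Axin2 signal over all arrays, 5.275, was below the median of all probe sets (5.4), so this limit is that of a dim signal. With arrays left out in turn the difference of Axin2 ran from -0.41 to 0.10, the latter without Cre Naïve replicate 2. Its second probe set gave 0.16 (log2, adjusted p = 0.646, limma).

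Nkd1 and Nkd2 encode Dishevelled-binding feedback inhibitors. The Nkd1 signal stayed between 5.18 and 5.52 on all 8 arrays, with a log2 fold change of 0.23 (95% interval -0.12 to 0.59, adjusted p = 0.555, limma) against Cre Naïve cells. These are the values of its brightest probe set, and the 3 other probe sets of Nkd1 differed. The second in brightness was at 5.21 and 5.68 in GFP Naïve, 5.73 and 5.00 in Cre Naïve, 5.03 and 5.34 in GFP Recurred and 4.44 and 3.78 in Cre Recurred cells, so both Cre Recurred arrays were the lowest. It gave -1.25 (log2, adjusted p = 0.293) against Cre Naïve cells, not called, and was lower at the study's thresholds against the mean of the 3 other populations (-1.22, adjusted p = 0.0886; limma) and against GFP Recurred cells (-1.07, adjusted p = 0.161). The other two gave -0.69 and -0.10 against Cre Naïve cells, so the direction of Nkd1 depended on the probe set. The Nkd2 signal was 6.95 and 5.88 in GFP Naïve, 7.28 and 6.30 in Cre Naïve, 5.90 and 6.01 in GFP Recurred and 5.84 and 5.32 in Cre Recurred cells. The Cre Recurred arrays were the lowest, by a narrow margin for replicate 1. For Nkd2 the log2 fold change was -1.22 (95% interval -2.21 to -0.22, adjusted p = 0.364, limma) against Cre Naïve and -0.81 (adjusted p = 0.279, limma) against the mean of the 3 other populations, and neither was called by limma. The SAM-type statistic called Nkd2 lower in the second of these, as did limma without Cre Naïve replicate 2, without GFP Naïve replicate 2, and among the probe sets above the median. Over all probe sets the SAM-type statistic called 3445 in that comparison, while limma called 1016 higher and 1877 lower. Without Cre Naïve replicate 2 Nkd2 was also called lower against Cre Naïve cells (-1.70, adjusted p = 0.191).

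Rnf43 and Znrf3 encode membrane ubiquitin ligases that remove Frizzled receptors. The Rnf43 signal was 4.65 and 4.25 in GFP Naïve, 4.09 and 5.27 in Cre Naïve, 5.28 and 4.63 in GFP Recurred and 4.50 and 4.62 in Cre Recurred cells, within the range of the others. Against Cre Naïve cells Rnf43 differed by -0.12 (log2, adjusted p = 0.917, limma), with -0.72 without Cre Naïve replicate 1 and 0.47 without Cre Naïve replicate 2. The Znrf3 signal was 6.91 and 7.09 in GFP Naïve, 6.67 and 7.19 in Cre Naïve, 6.87 and 7.24 in GFP Recurred and 7.57 and 7.36 in Cre Recurred cells, so both Cre Recurred arrays were the highest. The log2 fold change of Znrf3 was 0.54 (95% interval 0.03 to 1.04, adjusted p = 0.399, limma) against Cre Naïve cells and 0.47 (95% interval 0.06 to 0.88, adjusted p = 0.225, limma) against the mean of the 3 other populations. The latter is 1.39-fold and so below the 1.5-fold threshold. Without Cre Naïve replicate 2 Znrf3 was called higher against Cre Naïve cells (0.79, log2).

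Wisp1, a secreted matricellular protein under its array symbol Ccn4, had signals of 9.92 and 10.09 in GFP Naïve, 10.30 and 10.18 in Cre Naïve, 10.34 and 11.27 in GFP Recurred and 9.73 and 10.35 in Cre Recurred cells. GFP Recurred replicate 2 was the highest, and the Cre Recurred arrays spanned the Naïve ones. Wisp1 had a log2 fold change of -0.20 (95% interval -0.95 to 0.56, adjusted p = 0.828, limma) against Cre Naïve cells. As a list, 0 of the 6 output genes were called in any of the 6 comparisons by the main limma fit with the brightest probe sets. In Cre Recurred against Cre Naïve cells that fit called 1.65% of all genes, 0.456% higher, so 0 of so few genes says little. With the replicate number as a block, limma called Wisp1 lower against GFP Recurred cells. That fit also called Nkd2 lower against the mean of the 3 other populations. Wisp1 was called lower against GFP Recurred cells without Cre Recurred replicate 2 (-1.07, adjusted p = 0.219). In Cre Recurred against Cre Naïve cells 2 of them had an unadjusted p under 0.05, Znrf3 higher and Nkd2 lower, and the SAM-type statistic called 0. Over the other comparisons an unadjusted p under 0.05 was reached by Znrf3 against the mean of the 3 other populations and by Wisp1, lower in Cre Recurred than in GFP Recurred and higher in GFP Recurred than in GFP Naïve cells. The median log2 fold change of the 6 was -0.14, with 2 positive and 4 negative, and -0.08 against the mean of the 3 other populations. The former was 0.15 without Cre Naïve replicate 2 and 0.03 without Cre Recurred replicate 1, so its sign rested on single arrays. The upper limits of the 95% intervals against Cre Naïve cells were 0.86-fold for Nkd2, 1.38-fold for Axin2, 1.47-fold for Wisp1, 1.51-fold for Nkd1, 1.74-fold for Rnf43 and 2.06-fold for Znrf3, and larger rises of signal lay outside the intervals. These limits bound the array signal. For Axin2 (mean 5.275), Nkd1 (5.355) and Rnf43 (4.662) that signal was dim, below the median of all probe sets (5.4).

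**Figure D3:**
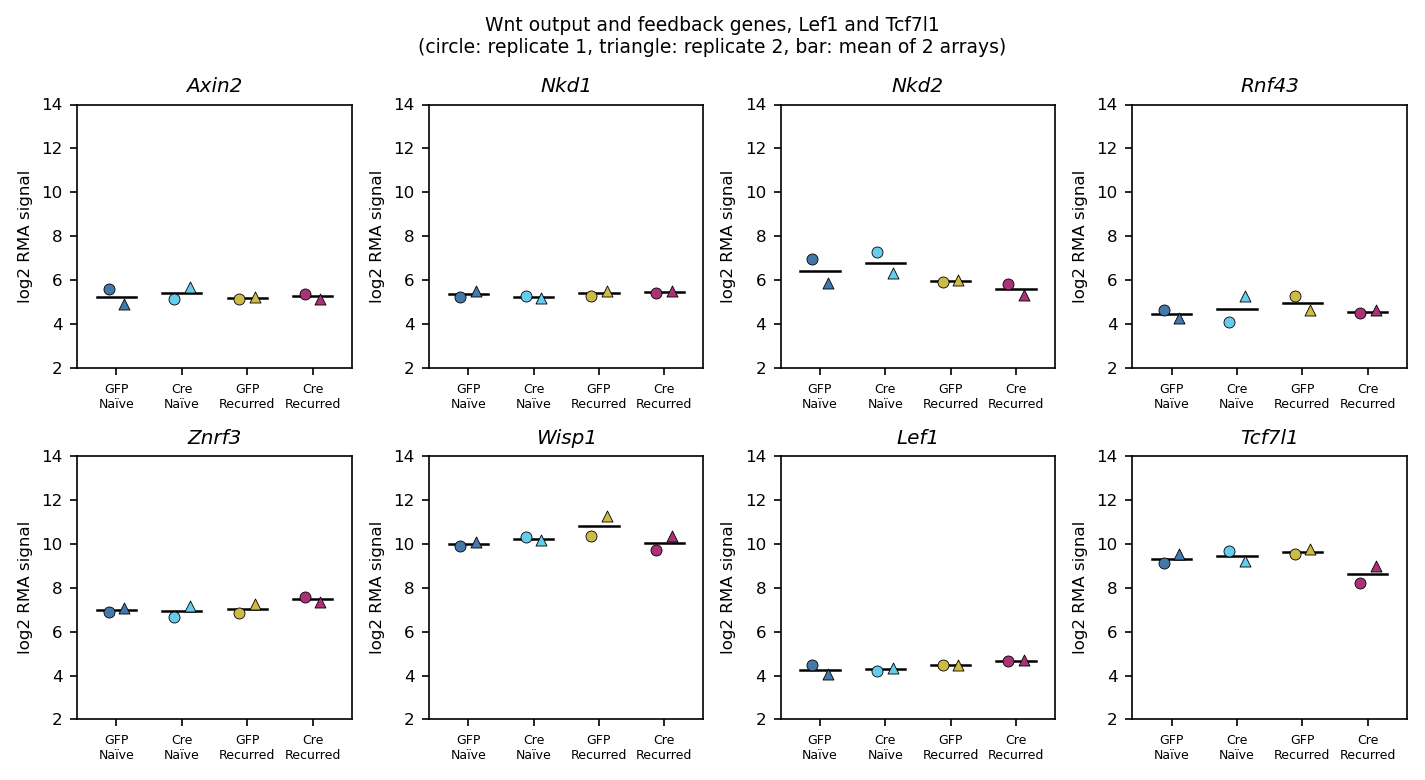
Log2 RMA signal (vertical axis) of the 6 output and feedback genes and of Lef1 and Tcf7l1 in the 4 populations (horizontal axis), with a circle for replicate 1, a triangle for replicate 2 and a bar for the mean of 2 arrays. The Cre Recurred arrays were highest for Znrf3 (7.57 and 7.36) and lowest for Nkd2 (5.84 and 5.32) and Tcf7l1, and lay among the others for Axin2 and Rnf43.

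Further genes that other tissues are known to switch on through β-catenin were listed apart, and 26 of 29 were measured. In Cre Recurred against Cre Naïve cells limma called 0 of the 26, beside 1.65% of all genes in either direction. With so small a share, 0 of 26 says little about these genes. An unadjusted p under 0.05 was reached by 4, and the median log2 fold change was 0.045, against 0.05 over all genes. Without Cre Naïve replicate 2 the count was 4 (Sox9 higher, Bambi, Bmp4 and Ephb3 lower), and without Cre Recurred replicate 2 it was 5 (Ccnd1 and Plaur higher, Twist1, Wisp2 and Ephb3 lower). The smallest adjusted p was that of Bambi, a decoy receptor for BMP and activin signals, at -0.85 (log2, adjusted p = 0.274, limma), and Ccnd1, a G1 cyclin that acts upstream of RB, was at 0.67 (adjusted p = 0.364). Against the mean of the 3 other populations 1 was called higher, Msx2, a homeobox factor, at 1.25 (log2, adjusted p = 0.242), and 5 lower, beside 2.69% of all genes higher and 5.66% lower. These were Bambi (-0.83), the ligand Bmp4 (-1.93), the matricellular gene Wisp2 (-2.17), the ephrin receptor gene Ephb3 (-0.84) and Apcdd1, a membrane inhibitor of Wnt (-0.76). Msx2, Bmp4, Wisp2 and Apcdd1 were named after their values were seen. None of the 6 was called without Cre Recurred replicate 1 (adjusted p of 0.383 for Bambi), and Msx2 was called in 3 of 8 fits that each left out 1 array. The Msx2 signal was 7.52 and 7.31 in Cre Recurred cells, but GFP Naïve replicate 1 reached 7.36, so the arrays overlapped.

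Among the ligands and their processing, 14 genes were measured. Apart from Wnt4 and Wnt5a, the 12 others differed from Cre Naïve cells by -0.42 to 0.53 (log2), and none was called. Wnt6 (0.46, adjusted p = 0.303) and Wnt7a (0.53, adjusted p = 0.310; limma) had the highest values of these. Their Cre Recurred arrays lay above the 6 others, at 6.01 and 5.93 for Wnt6 and 6.90 and 6.84 for Wnt7a, and both differences were under 1.5-fold. Wnt2 (0.09), Wnt2b (0.24), Wnt7b (0.27), Wnt9a (0.21), Wnt10b (0.18), Wnt11 (0.13) and Wnt16 (0.10) were on the positive side and Wnt5b (-0.15), a relative of Wnt5a, on the negative side, all within intervals that include 0. Wnt10a stood out through a single array, Cre Naïve replicate 2, at 6.47 against 4.51 to 5.38 elsewhere. Porcn, the acyltransferase that every Wnt needs for secretion, was at -0.13 (95% interval -0.69 to 0.44, log2). The remaining Wnt ligands and Fzd10, listed apart from the 44 genes, lay between -0.12 and 0.30. Of these, 0 of 7 were called, beside 1.65% of all genes in either direction, and 0 of 7 had an unadjusted p under 0.05.

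Among the 14 receptors, 11 had a negative and 3 a positive log2 fold change against Cre Naïve cells, with a median of -0.38. Only Ror1 and Ror2 were called there, beside 1.65% of all genes in either direction. Lrp6, the canonical co-receptor, had signals of 9.26 and 9.46 in GFP Naïve, 9.74 and 9.78 in Cre Naïve, 9.74 and 10.03 in GFP Recurred and 8.74 and 9.27 in Cre Recurred cells. Cre Recurred replicate 2 reached the lower end of the GFP Naïve arrays. For Lrp6 the log2 fold change was -0.67 (SE 0.17, adjusted p = 0.116, limma) against the mean of the 3 other populations, called at the study's thresholds, and -0.76 (adjusted p = 0.303, limma) against Cre Naïve cells, not called. The first call did not survive leaving out GFP Recurred replicate 2 (adjusted p = 0.256) or Cre Recurred replicate 1 (adjusted p = 0.576), or taking the mean of all its probe sets (-0.48, under 1.5-fold).

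The 9 Frizzled genes differed by -0.54 for Fzd1 to 0.17 for Fzd4 (log2) against Cre Naïve cells. None was called by the main limma fit in any comparison. Negative values were those of Fzd3 (-0.44), Fzd5 (-0.36), Fzd6 (-0.39), Fzd7 (-0.46) and Fzd8 (-0.28), and Fzd2 (0.09) and Fzd9 (0.10) were close to 0. Fzd5 had the widest spread, with 6.35 in Cre Recurred replicate 2 and 8.33 in GFP Naïve replicate 1, and 7.58 in the other Cre Recurred array. Lrp5, the second co-receptor, was at -0.06 and Ryk, an atypical Wnt receptor, at -0.21 (log2). Fzd8 was higher in Cre Recurred than in GFP Recurred cells by 0.63 (log2, adjusted p = 0.295, limma), and the SAM-type statistic called it. Over all probe sets that statistic called 4794 in this comparison, while limma called 1836 higher and 2152 lower. Limma called Fzd8 without either of the Cre Naïve arrays, in the fit of the compared arrays only, with array weights and among the probe sets above the median. Fzd5 was called lower against the mean of the 3 other populations without Cre Naïve replicate 2 (-0.85, adjusted p = 0.213).

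**Figure D4:**
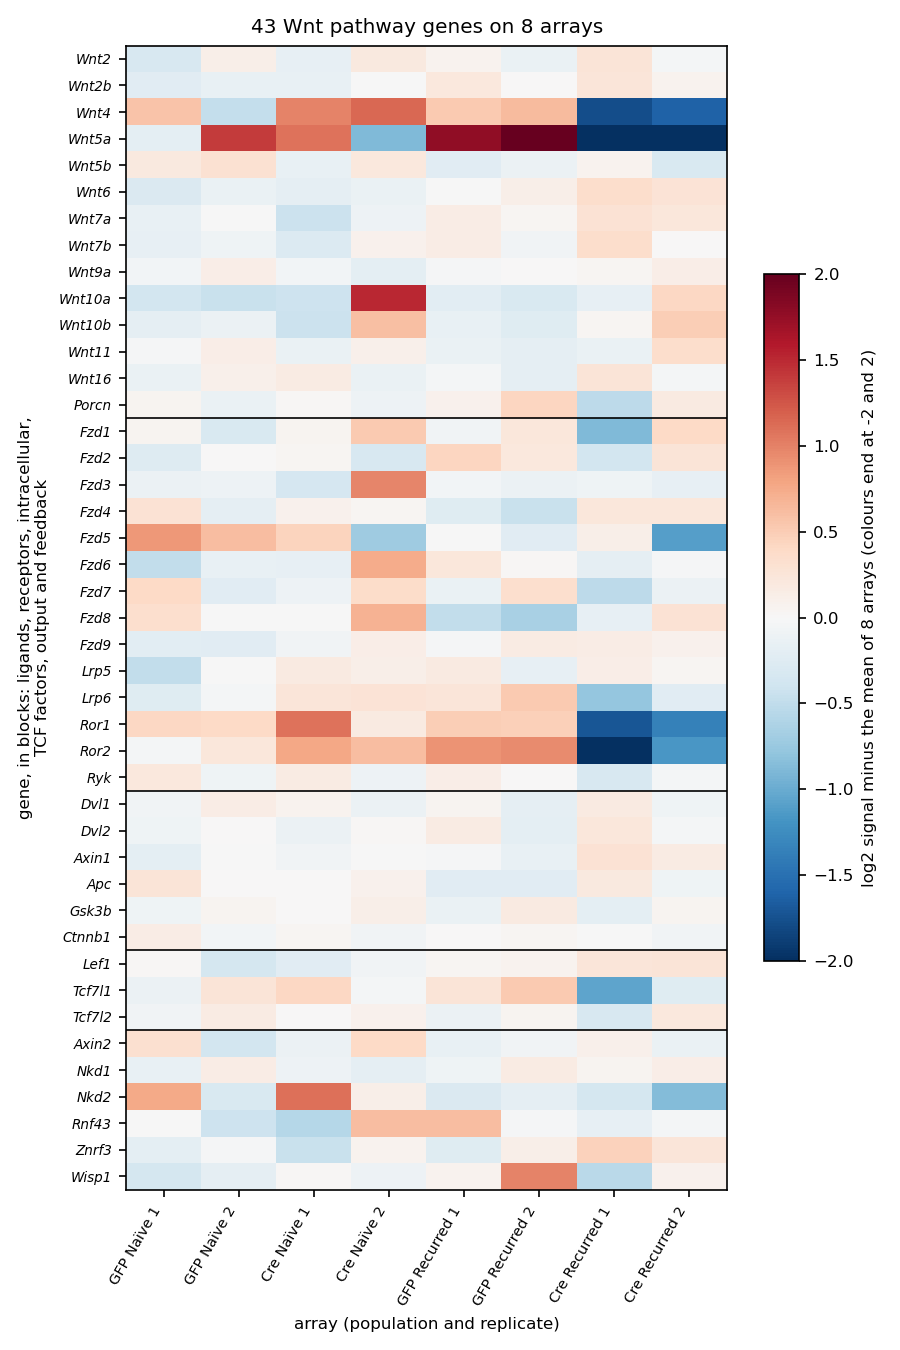
Log2 signal minus the mean of 8 arrays (colour, ending at -2 and 2) for the 43 Wnt pathway genes (vertical axis) on each array (horizontal axis), in blocks from ligands to output and feedback genes. The Cre Recurred columns are blue for Wnt4, Wnt5a, Ror1 and Ror2, and Cre Naïve replicate 2 is red for Wnt10a and Fzd3.

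None of the intracellular components was called in any comparison at its brightest probe set, while 1 dimmer probe set of Gsk3b was lower at the study's thresholds against the mean of the 3 other populations (-0.68, adjusted p = 0.178) and against GFP Recurred cells (-0.80, adjusted p = 0.199; limma). The 6 genes were Dvl1 and Dvl2, the Dishevelled relays, Axin1, Apc and Gsk3b of the destruction complex, and Ctnnb1, which encodes β-catenin. They differed by -0.13 to 0.26 (log2) against Cre Naïve cells. There 0 of the 6 were called by limma, beside 1.65% of all genes in either direction. The SAM-type statistic also called 0, and 0 had an unadjusted p under 0.05. Ctnnb1 stayed between 12.75 and 12.98 on all 8 arrays, with a 95% interval of -0.33 to 0.27 for that comparison. Axin1 was the exception in order, since both Cre Recurred arrays lay above the 6 others (0.29, adjusted p = 0.216, limma, against the mean of the 3 other populations, under 1.5-fold).

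Of the TCF factors, Tcf7l1, largely a repressor of Wnt targets, had signals of 9.13 and 9.52 in GFP Naïve, 9.66 and 9.21 in Cre Naïve, 9.52 and 9.77 in GFP Recurred and 8.20 and 9.01 in Cre Recurred cells. Both Cre Recurred arrays were the lowest, and replicate 1 was much lower than replicate 2. The log2 fold change was -0.86 (SE 0.24, adjusted p = 0.141, limma) against the mean of the 3 other populations, called at the study's thresholds, and -0.83 (adjusted p = 0.370) against Cre Naïve cells. Leaving out Cre Recurred replicate 1 (-0.46, adjusted p = 0.639), GFP Recurred replicate 2 (adjusted p = 0.293) or GFP Recurred replicate 1 ended the call. Lef1, a TCF factor that is itself a Wnt target, was dim, at 4.08 to 4.50 on the 6 other arrays and 4.67 and 4.69 on the Cre Recurred arrays, with a difference of 0.33 (log2, adjusted p = 0.234, limma) that was under 1.5-fold. Tcf7l2 was at -0.08 in the same comparison.

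Genes of the planar polarity branch that work beside Ror2 were listed apart from the 44 genes, and 11 of 11 were measured. Against Cre Naïve cells 1 was called, beside 1.65% of all genes in either direction. This was Prickle2, a cytoplasmic polarity protein, at -1.36 (log2, SE 0.27, adjusted p = 0.207, limma). Its signal was 8.71 and 8.76 in GFP Naïve, 9.06 and 8.13 in Cre Naïve, 9.20 and 9.25 in GFP Recurred and 7.20 and 7.27 in Cre Recurred cells, with no overlap. Against the mean of the 3 other populations Prickle2 fell by 1.61 (log2, adjusted p = 0.0367), and Daam1, a formin that binds Dishevelled, was at -0.97 (adjusted p = 0.0713; limma). Prickle1 was lower at the study's thresholds there (-1.10, adjusted p = 0.222) and Daam2 higher (0.79, adjusted p = 0.230), both named after their values were seen, so 3 of the 11 were called lower and 1 higher, beside 5.66% of all genes lower and 2.69% higher. Celsr2, an adhesion receptor of the branch, was at 0.44 and Ptk7, a Wnt co-receptor, at -0.58 (log2) against Cre Naïve cells, neither called. Without Cre Recurred replicate 1 none of the 11 was called in either comparison (Prickle2 at an adjusted p of 0.318 against the 3 other populations), and the call of Prickle2 against Cre Naïve cells was also lost on leaving out each of the 4 GFP arrays. That count against Cre Naïve cells was 3 without Cre Naïve replicate 2 and 3 without Cre Recurred replicate 2.

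Of 23 further intracellular components 1 was called against Cre Naïve cells, beside 1.65% of all genes in either direction. This was Dact3, a Dishevelled-binding protein, at -0.82 (log2, SE 0.17, adjusted p = 0.208, limma). It fell by 0.89 against the mean of the 3 other populations (adjusted p = 0.0435), and its relative Dact1 was at -2.19 (adjusted p = 0.131; limma). Neither was called without Cre Recurred replicate 1 (adjusted p = 0.318 for Dact3), and the call of Dact3 against Cre Naïve cells was kept in 2 of 8 fits that each left out 1 array. Of 15 secreted antagonists, Sfrp1 and Sfrp2 were the 2 called against Cre Naïve cells, beside the same 1.65% of all genes. Neither was called without Cre Recurred replicate 1 (adjusted p = 0.256 for Sfrp1 and 0.807 for Sfrp2) or in a fit of the compared arrays only (0.252 and 0.56), and Sfrp2 also lost its call without either GFP Recurred array (0.436) and with the SAM-type statistic (0.547). Dkk3, a Dickkopf family member, was at -0.98 (log2, adjusted p = 0.310, limma). Dkk3 was lower at the study's thresholds against the mean of the 3 other populations (-0.99, adjusted p = 0.0991). Sfrp5 was at 0.54 (log2, adjusted p = 0.356, limma) against Cre Naïve cells, and Sfrp4 stayed between 6.15 and 6.83 on all 8 arrays. Of the 11 R-spondins, Lgr receptors, Wnt export genes and glypicans, limma called 0 against Cre Naïve cells, beside 1.65% of all genes. Against the mean of the 3 other populations it called 4 lower, beside 5.66% of all genes lower. These were the Wnt agonists Rspo2 (-1.10) and Rspo3 (-1.45), the R-spondin receptor Lgr4 (-0.68) and the glypican Gpc6 (-0.75), of which Rspo3 was named after its values were seen. Rspo2, Rspo3 and Lgr4 each lost the call with 5 of the 8 arrays left out in turn and Gpc6 with 6 of them. Without Cre Recurred replicate 1 none of these 4 nor Dkk3 was called, and without GFP Recurred replicate 2 none of the 4 was. Without Cre Naïve replicate 2, 5 antagonists and 2 further intracellular components were called against Cre Naïve cells, and without Cre Recurred replicate 2 there were 4 of each. Wls, the carrier that takes Wnt ligands to the surface, stayed between 10.31 and 10.72.

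Markers of cell types moved with these results in part. The fibroblast markers Col1a1 and Vim were bright on every array, at 11.9 to 13.4 and at 13.2 to 13.6 (log2). In Cre Recurred against Cre Naïve cells limma with all arrays called 0 of 10 fibroblast markers, beside 1.65% of all genes. An unadjusted p under 0.05 was reached by 3. Of the 10, 9 had a negative log2 fold change there, with a median of -0.60 and a range from -2.16 for Fap to 0.88 for Thy1. This result depended on the array. Cre Recurred replicate 1 lay below the 6 other arrays for Col3a1 (11.70) and Pdgfrb (10.20), while replicate 2 (13.23 and 11.75) lay within their range. Against the mean of the 3 other populations Fap, Pdgfrb and Prrx1 were lower and Thy1 higher at the study's thresholds, and none of the 4 was called without Cre Recurred replicate 1. The summed linear signal of the 10 was 36730 in Cre Recurred replicate 1 and 60140 in replicate 2, against 55520 to 74050 on the 6 other arrays, so replicate 2 lay within the range of the others. That of 7 mesothelial markers was 713.5 and 447.3 in Cre Recurred cells against 225.5 to 293.1 elsewhere, which came largely from Msln (8.86 and 7.82 against 6.15 to 6.98) and Krt19, while Upk3b and Lrrn4 stayed at or below 4.14 on all arrays. As a list the 7 did not shift against Cre Naïve cells, with 4 positive, 3 negative and a median log2 fold change of 0.004. The negative ones were Wt1 (mean 5.13 against 5.896), Krt18 (4.108 against 4.279) and Lrrn4 (2.853 against 2.895). Wt1 was at 4.295 in Cre Recurred replicate 1 and 5.964 in replicate 2. Msln rose against the mean of the 3 other populations (1.78, log2, adjusted p = 0.0448, limma) and was higher at the study's thresholds against Cre Naïve cells (2.14, adjusted p = 0.132), and Krt19 was higher at those thresholds against the 3 other populations (1.73, adjusted p = 0.127). The summed signals of 4 skeletal muscle markers were 342.5 and 372.5 against 182.4 to 308.6. Of these, Acta1 was higher at the study's thresholds against Cre Naïve cells (0.84, adjusted p = 0.176) and against the 3 other populations (0.75, adjusted p = 0.0578), and Des against the latter (1.19, adjusted p = 0.139; limma). Myod1 (4.57 and 4.82 in Cre Recurred cells) and Myog (4.75 and 4.69) were dim and lay within the range of the other arrays. Against Cre Naïve cells 2 of the 4 muscle markers were positive and 2 negative. The adipocyte marker Pparg was lower against the 3 other populations (-2.16, adjusted p = 0.137, limma), where the adipocyte list had 2 positive and 1 negative. Fabp4, at 9.39 and 8.03 in Cre Recurred cells, overlapped with the other arrays. None of these marker calls was made without Cre Recurred replicate 1 (adjusted p = 0.262 for Msln against the 3 other populations). The defining markers of epithelium (Cdh1, 2.69 to 2.85), leukocytes (Ptprc, 2.95 to 3.19) and fat (Adipoq, 2.50 to 2.78) were dim on every array, and those of endothelium (Pecam1) were at 3.22 to 3.91. Other markers of these lists were brighter, Fabp4 at 7.20 to 9.55 and Pparg at 5.05 to 8.56 for fat, and Cd14 at 8.88 to 9.94 and Csf1r at 6.37 to 8.19 for macrophages. The summed signals of the epithelial, endothelial, macrophage and adipocyte lists overlapped between the Cre Recurred arrays and the others. The part of these markers in the differences of Wnt4, Wnt5a, Ror1 and Ror2 was not tested.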

How the data were processed

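RNA of 4 fibroblast populations was hybridized to 8 Affymetrix arrays, 2 per population. The authors deposited log2 RMA signals, 1 per probe set, made from the scanner intensities; per the labels the procedure was RMA, and its software version is not given in the sources used here. Precision is limited by how few arrays there are, and 2 against 2 cannot give an exact two-sided permutation p below 0.333. Of 45101 probe sets 64 controls were left out. Array annotation gave 34945 probe sets 1 symbol, 932 several and 9160 none.

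Limma 3.58.1 (R 4.3.3) fitted 1 mean per population to all 8 arrays, with 4 residual and 3.07 prior degrees of freedom, in 6 comparisons. The methods of the study used SAM, at 1.5-fold and an FDR under 25%, so a SAM-type statistic was an alternative. Others were array weights (statmod 1.5.0), another prior, normalization, filters, probe set rule, samples, replicate block and leaving out each array (for genes outside the 44, added after the data were seen). Fits were tested on simulated data with independent noise, which checked the recovered fold changes and not the rate of false calls on these arrays. All 43 measured genes were named, with each array's values for those called in any comparison, at least 2-fold different or in the output list, and from each other list up to 4 genes with the smallest adjusted p against Cre Naïve cells. The members and lists were chosen with earlier results of these data known. Figures used Python 3.11.15, numpy 2.4.6 and matplotlib 3.10.9.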

Additional observations from a re-analysis of the deposited data

Results flagged for a closer look

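The change with recurrence, Recurred minus Naïve, differed between Cre and GFP cells for several genes. By the test of the difference itself (limma, study's thresholds), Cre minus GFP was -3.30 for Wnt4, -2.24 for Ror1, -3.25 for Ror2 and -6.71 for Sfrp1 on the log2 scale. Sfrp1 was the starting point of the question, and its call was lost without GFP Naïve replicate 1 (adjusted p = 0.289), either GFP Recurred array (0.534 and 0.806) or Cre Recurred replicate 1 (0.482). For 3 further genes every Cre array moved one way with recurrence and every GFP array the other, and the test of the difference was not past those thresholds: Wnt5a at -4.13 (log2, adjusted p = 0.317), Lrp6 at -1.28 (adjusted p = 0.313) and Fzd4 at 0.57 (adjusted p = 0.488; limma). Wnt5a and Lrp6 were higher in GFP Recurred than in GFP Naïve cells and lower in Cre Recurred than in Cre Naïve cells, and Fzd4 was the reverse.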

How the results depend on the processing

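No called value reversed under any alternative. Of the log2 fold changes of single genes under the alternatives, 4537 stayed on their side of the threshold, 44 passed it newly and 66 no longer passed it, and 220 changed sign where none was called. At the stricter adjusted p the count of called genes was 0 in Cre Recurred against Cre Naïve cells and 0 in the interaction, against 3 each. Only the arrays compared gave 1 (Wnt4) in the former comparison, as did the SAM-type statistic, which also gave 1 (Ror2, higher) in GFP Recurred against GFP Naïve cells. Over all probe sets the SAM-type statistic called 69 in Cre Recurred against Cre Naïve and 266 in GFP Recurred against GFP Naïve cells. With arrays left out in turn the counts ran from 1 to 8 for Cre Recurred against Cre Naïve, 0 to 2 for Cre Naïve against GFP Naïve (2, Wnt10a and Fzd3, without Cre Naïve replicate 1), 0 to 0 for GFP Recurred against GFP Naïve, 0 to 10 for Cre Recurred against GFP Recurred, 2 to 8 for Cre Recurred against the mean of the 3 other populations and 0 to 7 for the interaction, and the median of the output genes against Cre Naïve cells from -0.27 to 0.15. The array left alone is then assumed to vary like the others, and the share of all genes called was not computed for these fits. Normalization (cyclic loess, median centring), prior and array weights changed the counts by at most 1. The mean of all probe sets of a gene lost Ror1, at -0.51 against the 3 other populations, and called Wnt5a against Cre Naïve cells (-1.92, adjusted p = 0.247). The replicate numbers do not pair the samples, with correlations of replicate differences from -0.255 to 0.307 between populations. With the replicate block the counts were 3, 0, 0, 7 (with Wisp1), 8 (with Fzd5 and Nkd2) and 3 in the order above, and the interaction called Lrp6 (adjusted p = 0.248) in place of Ror1 (adjusted p = 0.261). For the interaction no SAM-type value was computed, nor was a fit of the compared arrays made for comparisons that use all arrays.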
